A study of Mus musculus with 4 samples.

Results

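Leukotrienes and prostaglandins are signalling lipids made from arachidonate, and 10 genes of their synthesis and sensing are described here in single cells of mouse liver. The genes were taken by symbol from the deposited gene list, which held 32285 genes, and all 10 were found. Alox5 (arachidonate 5-lipoxygenase), Alox5ap (its activating protein, FLAP), Lta4h (leukotriene A4 hydrolase), Ltc4s (leukotriene C4 synthase), Alox15 (arachidonate 12/15-lipoxygenase in the mouse) and Ltb4r1 (the high-affinity leukotriene B4 receptor) belong to the leukotriene and lipoxygenase arm. Ptgs1 and Ptgs2 (cyclooxygenases COX-1 and COX-2), Ptges (microsomal prostaglandin E synthase) and Hpgds (haematopoietic prostaglandin D synthase) belong to the prostaglandin arm.

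As background, ALOX5 acts with FLAP to turn arachidonate into leukotriene A4. LTA4H then makes leukotriene B4, which attracts neutrophils through its receptor, and LTC4S makes the cysteinyl leukotrienes, which act on vessels and smooth muscle. The cyclooxygenases make prostaglandin H2, which PTGES and HPGDS turn into prostaglandins E2 and D2, and PTGS2 is the cyclooxygenase known to be induced in inflammation.

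The samples were male C57BL/6J mice fed a Western diet with sugar water and given low-dose carbon tetrachloride weekly (FAT-MASH, a model of metabolic steatohepatitis, called MASH here), and mice on normal chow. Each diet was sampled at 12 and at 24 weeks, with 1 library for each diet and week. Carbon tetrachloride injures hepatocytes directly, and the diet and the toxin were given together, so their effects cannot be told apart. Livers stayed on ice overnight before enzymatic digestion, and a Percoll step then enriched cells other than hepatocytes, so a share of cells describes the suspension and not the liver.

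After the cell filter and removal of called doublets, 15134 cells from 12-week MASH, 16104 from 12-week chow, 17476 from 24-week MASH and 21455 from 24-week chow were used, with 65340482, 42282626, 83707604 and 59384578 UMIs (unique molecular identifiers, 1 per captured molecule). Median depth was 3068 UMIs per cell in 12-week MASH and 1973 in 12-week chow, and 3165.5 in 24-week MASH and 2070 in 24-week chow. In cells that passed the filter, 24-week MASH shared 487 barcodes with 12-week chow and 732 with 24-week chow, and the chow libraries shared 730. Shared sequences can also arise by chance from the kit's barcode list, and 12-week MASH was not included in that count. The 24-week chow library stood apart within itself: cells carrying hashtags 1 to 4 included 26 to 44 neutrophil-like cells per hashtag, and cells carrying hashtags 5 to 8 included 203 to 259. In 24-week MASH the range was 96 to 160 per hashtag. Hashtags are antibody barcodes put on cells before pooling. What each one stands for is not given in the labels, and they were not used as animals, and results at 24 weeks were recomputed with each part of the chow library where it gave a ratio. Of 16 pairs called at 24 weeks, 9 had one with hashtags 1 to 4 and 11 with hashtags 5 to 8.

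Cell classes were named from fixed marker genes after clustering without the 10 genes, and are written as "-like". Unnamed clusters held 5938 kept cells and clusters of mixed markers 4681, and these lie outside the named classes. Unnamed cells made up 10.7% of 12-week MASH and 5.59% of 12-week chow, and 11.1% and 6.90% at 24 weeks. Mixed cells made up 6.94% and 7.46%, then 6.91% and 5.69%. Neutrophil-like cells numbered 233 in 12-week MASH and 137 in 12-week chow, and 1278 in 24-week MASH and 1341 in 24-week chow. All 8 neutrophil markers were detected in each library. Kupffer-like cells numbered 140 and 29 at 12 weeks and 103 and 7 at 24 weeks (MASH, then chow), and macrophage-like cells 187 and 28, then 307 and 7, so neither class was compared at 24 weeks. Mature dendritic-like cells in 24-week chow, with 12 cells, were left out of comparisons for the same reason. Levels are given as CPM, the gene's UMIs per 1000000 UMIs of all cells of the class. With 1 library per group there is no replicate error and no test: ratios of MASH over chow carry an exact 95% interval that covers counting error only. A ratio is called higher or lower here when it was at least 2-fold, its interval left out 1 and the pair held at least 10 UMIs.

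Promoter sequences of 4 genes are shown because these genes divided between cell types: Alox5 and Ptgs2 were highest in basophil- and neutrophil-like cells, and Ltc4s and Ptgs1 were high in endothelial-like cells. Each runs 5′ to 3′ on the gene's strand, from 250 bases before to 50 bases after the RefSeq start (GRCm38.p6). The windows are chr6:116461129-116461428 (minus strand) for Alox5, chr1:150099781-150100080 (plus) for Ptgs2, chr11:50238483-50238782 (minus) for Ltc4s and chr2:36230176-36230475 (plus) for Ptgs1. Capitals mark GAGGAA or its reverse complement TTCCTC, the core bound by PU.1-type factors, and in Ptgs2 also TTGCGCAA, a C/EBP palindrome, and ACGTCA overlapping CACGTG.
Alox5: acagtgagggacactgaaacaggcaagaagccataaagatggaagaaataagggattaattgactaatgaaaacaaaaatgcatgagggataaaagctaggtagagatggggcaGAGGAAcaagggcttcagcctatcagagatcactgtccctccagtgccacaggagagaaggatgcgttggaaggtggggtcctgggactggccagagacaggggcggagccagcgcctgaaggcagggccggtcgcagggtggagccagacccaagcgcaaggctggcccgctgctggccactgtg
Ptgs2: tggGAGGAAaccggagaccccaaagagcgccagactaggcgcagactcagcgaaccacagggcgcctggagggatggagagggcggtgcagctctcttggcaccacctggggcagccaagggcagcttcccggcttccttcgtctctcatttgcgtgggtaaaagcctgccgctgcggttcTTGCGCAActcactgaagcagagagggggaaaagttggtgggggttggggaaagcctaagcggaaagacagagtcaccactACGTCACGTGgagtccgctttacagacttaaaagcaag
Ltc4s: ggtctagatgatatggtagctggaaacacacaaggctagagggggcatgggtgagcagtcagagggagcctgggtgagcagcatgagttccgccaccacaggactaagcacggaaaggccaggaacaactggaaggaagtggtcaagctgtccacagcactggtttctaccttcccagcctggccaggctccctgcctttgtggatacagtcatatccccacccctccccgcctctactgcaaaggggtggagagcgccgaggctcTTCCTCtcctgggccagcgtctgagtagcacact
Ptgs1: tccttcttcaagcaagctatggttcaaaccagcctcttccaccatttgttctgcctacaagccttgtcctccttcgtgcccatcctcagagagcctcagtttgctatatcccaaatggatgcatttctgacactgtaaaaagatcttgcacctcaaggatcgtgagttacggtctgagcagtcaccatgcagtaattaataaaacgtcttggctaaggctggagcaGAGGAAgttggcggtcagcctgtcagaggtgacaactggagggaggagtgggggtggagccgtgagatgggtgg

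All 8 of the 10 genes with a promoter in the table held GAGGAA on either strand, as did 28.3% of all 32851 windows of the same length. TTGCGCAA was found in 0.183% of windows, TGACGT or ACGTCA in 7.51% and CACGTG in 7.15%, and of the 8 genes in Ptgs2 alone. The motifs were chosen after these sequences were seen, and a match is a description of the letters only.

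Alox5 (chromosome 6, 116410077 to 116461178 on GRCm38, minus strand) was highest, among named classes, in granulocytes. The unnamed cluster m11, described below, held 105 CPM in 12-week MASH and 64.0 CPM in 24-week MASH. Basophil-like cells held 219 CPM in 12-week MASH and 232 CPM in 12-week chow, and 345 CPM in both 24-week libraries. Neutrophil-like cells held 152 CPM in 12-week MASH and 164 CPM in 12-week chow, and 172 CPM in 24-week MASH and 146 CPM in 24-week chow. The 4 basophil-like values lay above all 4 neutrophil-like values, and among the 18 named classes non-classical monocyte-like cells came next with a median of 16.3 CPM and a range of 12.4 to 31.2. Neither granulocyte class differed between diets by 2-fold: neutrophil-like cells had a ratio of 0.928 (0.593 to 1.48) in week 12 and one of 1.18 (1.02 to 1.36) in week 24. Cells with an Alox5 UMI made up 21.5% of neutrophil-like cells in 12-week MASH and 17.5% in 12-week chow, and 26.8% and 18.6% at 24 weeks. After thinning to 1000 UMIs these shares were 13.7% and 17.6%, then 13.8% and 13.9%. Shallower cells were left out of the thinned shares, 43 of 233 and 63 of 137 at 12 weeks and 187 of 1278 and 334 of 1341 at 24 weeks, so the thinned and unthinned shares cover different cells.

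Lower levels of Alox5 changed outside the granulocytes. Conventional dendritic type 2-like cells held 8.84 CPM in 12-week MASH and 22.7 CPM in 12-week chow (15 and 13 UMIs), a ratio of 0.39 (0.17 to 0.89). Classical monocyte-like cells held 3.10 CPM in 24-week MASH and 10.6 CPM in 24-week chow, with 10 UMIs in each library and a ratio of 0.292 (0.109 to 0.783). With hashtags 1 to 4 of the chow library that ratio was 0.295 (0.0852 to 1.29) and with hashtags 5 to 8 it was 0.392 (0.101 to 2.22), and neither was called.

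Alox5ap (chromosome 5, 149264767 to 149288153, plus strand) was spread over nearly all myeloid classes. Basophil-like cells held 2836 CPM in 12-week MASH and 3307 CPM in 12-week chow, and 2706 and 2827 CPM at 24 weeks. Neutrophil-like cells held 2331 and 2519 CPM at 12 weeks and 2206 and 2275 CPM at 24 weeks (MASH, then chow). Classical monocyte-like cells held 2122 and 2530 CPM, then 1996 and 1911 CPM. Neighbouring classes overlapped from there down to conventional dendritic type 2-like cells, and plasmacytoid dendritic-like cells (median 1048 CPM, 905 to 1208), macrophage-like cells (521 CPM, 509 to 770) and Kupffer-like cells (260 CPM, 217 to 483) lay lower. Kupffer- and macrophage-like values come from 3 libraries. Of 2989 neutrophil-like cells, 666 had an Alox5 UMI and 635 of these also had an Alox5ap UMI, as did 144 of 148 Alox5-positive basophil-like cells.

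At 12 weeks the Alox5ap ratio lay below 1 in 9 myeloid classes, and in neutrophil-like cells its interval included 1, at 0.926 (0.828 to 1.04). It was 0.708 (0.620 to 0.810) in non-classical monocyte-like cells, 0.778 (0.723 to 0.838) in conventional dendritic type 2-like cells and 0.539 (0.355 to 0.849) in Kupffer-like cells, and none reached 2-fold. In mature dendritic-like cells, with 4 chow UMIs, it was 1.84 (0.677 to 7.03). At 24 weeks the ratio was 0.807 (0.714 to 0.914) in non-classical monocyte-like cells and 1.04 (0.991 to 1.1) in classical monocyte-like cells. Over all kept cells Alox5ap was instead higher in MASH, at 361 CPM against 239 CPM in chow at 12 weeks (1.51-fold) and 455 CPM against 261 CPM in chow at 24 weeks (1.74-fold). The 24-week ratio was 2.36 with hashtags 1 to 4 of the chow library and 1.26 with hashtags 5 to 8. Monocyte and macrophage clusters other than the one described below held 37.1% of the gene's UMIs in 12-week MASH and 34.6% in 12-week chow, and 43.1% in 24-week MASH and 20.2% in 24-week chow.

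**Figure D1:**
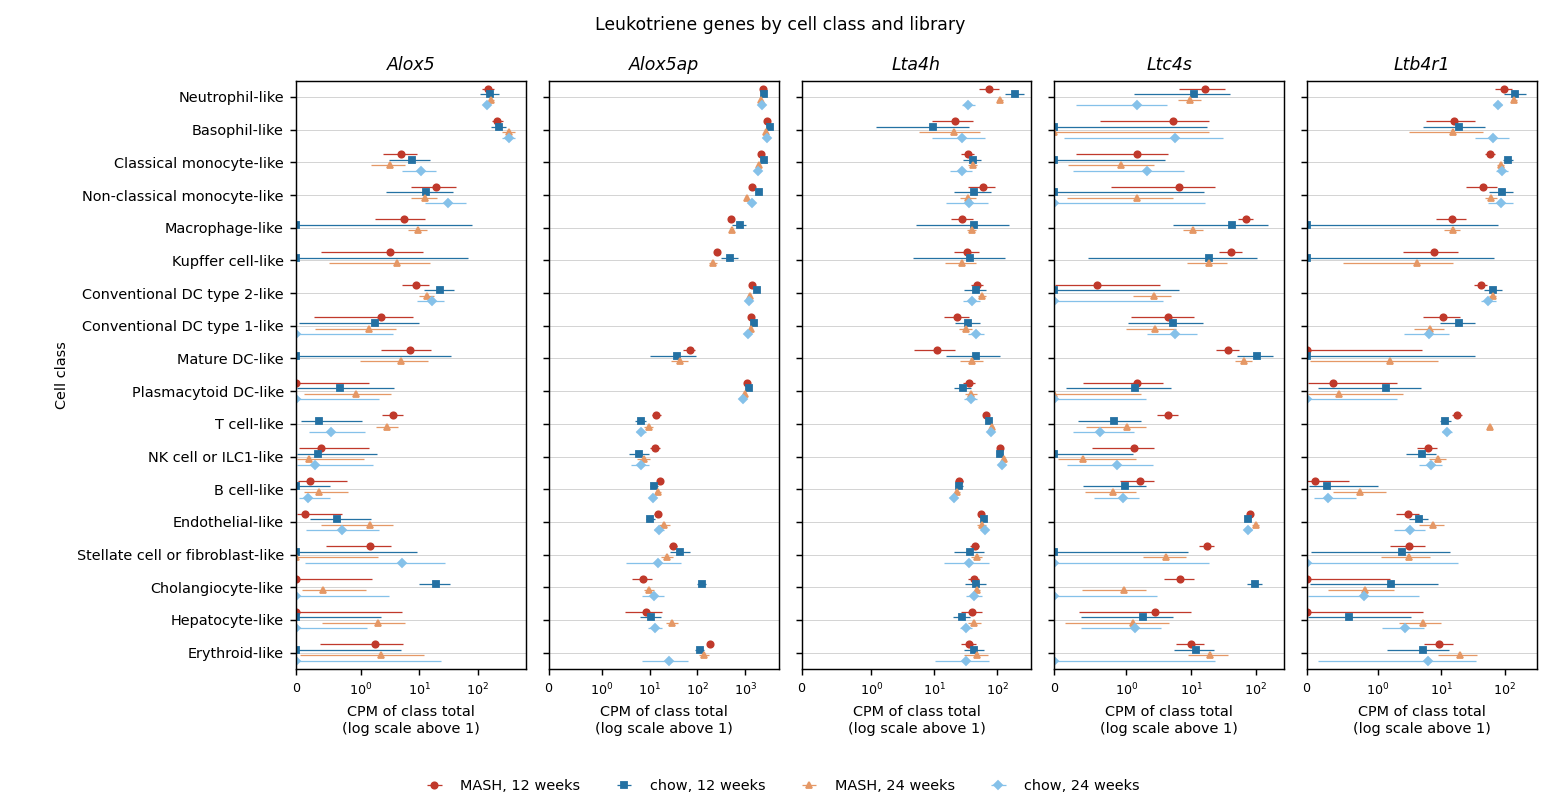
Levels of 5 leukotriene genes (x axis, CPM of the class total, log scale above 1) in 18 cell classes (y axis). Points are the 4 libraries and bars are 95% Poisson intervals of the counts. Alox5 sits at 146 to 345 CPM in the granulocyte classes, while Alox5ap extends through the monocyte and dendritic classes.

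Lta4h (chromosome 10, 93453411 to 93484875, plus strand), whose enzyme makes leukotriene B4, was not limited to myeloid cells. The class called NK-cell-like here was named jointly for NK cells and ILC1 (a kind of innate lymphoid cell), which were not separated. NK-cell-like cells held 111 CPM in 12-week MASH and 113 CPM in 12-week chow, and 128 and 120 CPM at 24 weeks. T-cell-like cells held 65.3 and 74.7 CPM at 12 weeks and 83.2 and 79.3 CPM at 24 weeks. These lymphoid levels differed little between diets, with NK-cell-like ratios of 0.986 (0.860 to 1.13) and 1.07 (0.941 to 1.21). T, B and NK classes together held 36.4% of all Lta4h UMIs in 12-week MASH and 47.0% in 12-week chow, and 32.4% and 53.1% at 24 weeks.

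In neutrophil-like cells Lta4h differed between diets. They held 75.1 CPM of Lta4h in 12-week MASH and 192 CPM in 12-week chow (32 and 35 UMIs), a ratio of 0.392 (0.23 to 0.65). At 24 weeks they held 111 CPM in MASH and 34.6 CPM in chow (297 and 72 UMIs), a ratio of 3.20 (2.47 to 4.20). Lta4h was thus lower in MASH at 12 weeks and higher in MASH at 24 weeks, and the difference between weeks was not tested. With hashtags 1 to 4 of 24-week chow the ratio was 2.54 (1.27 to 5.93) and with hashtags 5 to 8 it was 3.09 (2.31 to 4.21). By single hashtag, Lta4h in neutrophil-like cells ranged from 16.2 to 63.0 CPM over 3 hashtags of 12-week MASH and from 190 to 259 CPM over 2 of 12-week chow. Over 8 hashtags each at 24 weeks the ranges were 17.3 to 172 CPM in MASH and 0 to 60.9 CPM in chow, which overlap.

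The neutrophil-like Lta4h signal lay mainly in 1 sub-cluster. Sub-cluster g5, 264 cells led by Ltf, Ngp, Camp and Lcn2 (genes of neutrophil granule proteins), held 282 CPM of Lta4h and 312 CPM of Ltb4r1, whereas other neutrophil-like sub-clusters held 3.12 to 50.5 CPM of Lta4h. It made up 12.4% of neutrophil-like cells in 12-week MASH and 17.5% in 12-week chow, and 13.3% in 24-week MASH and 3.06% in 24-week chow. Within g5, Lta4h was at 228 CPM in 12-week MASH and 469 CPM in 12-week chow, and at 301 and 169 CPM at 24 weeks. Without g5 the 24-week ratio was 1.18 (0.757 to 1.83), with 25.4 CPM in MASH and 21.6 CPM in chow. At 12 weeks 2 and 5 UMIs remained outside g5.

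Ltb4r1 (chromosome 14, 55765962 to 55768494, plus strand) followed the same sub-cluster. In g5 it was at 265 CPM in 12-week MASH and 344 CPM in 12-week chow, and at 303 and 377 CPM at 24 weeks. Outside g5 it was at 23.8 and 42.1 CPM, then 66.0 and 49.0 CPM. Over all neutrophil-like cells it held 98.5 CPM in 12-week MASH and 148 CPM in 12-week chow, and 140 CPM in 24-week MASH and 77.9 CPM in 24-week chow, and neither ratio was called. Classical monocyte-like cells held 59.7 and 114 CPM at 12 weeks, a ratio of 0.522 (0.399 to 0.684), and 87.1 and 91.2 CPM at 24 weeks. An unnamed myeloid cluster of 53 cells led by Prss34 and Camp also carried both genes, at 468 CPM of Lta4h and 213 CPM of Ltb4r1.

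**Figure D2:**
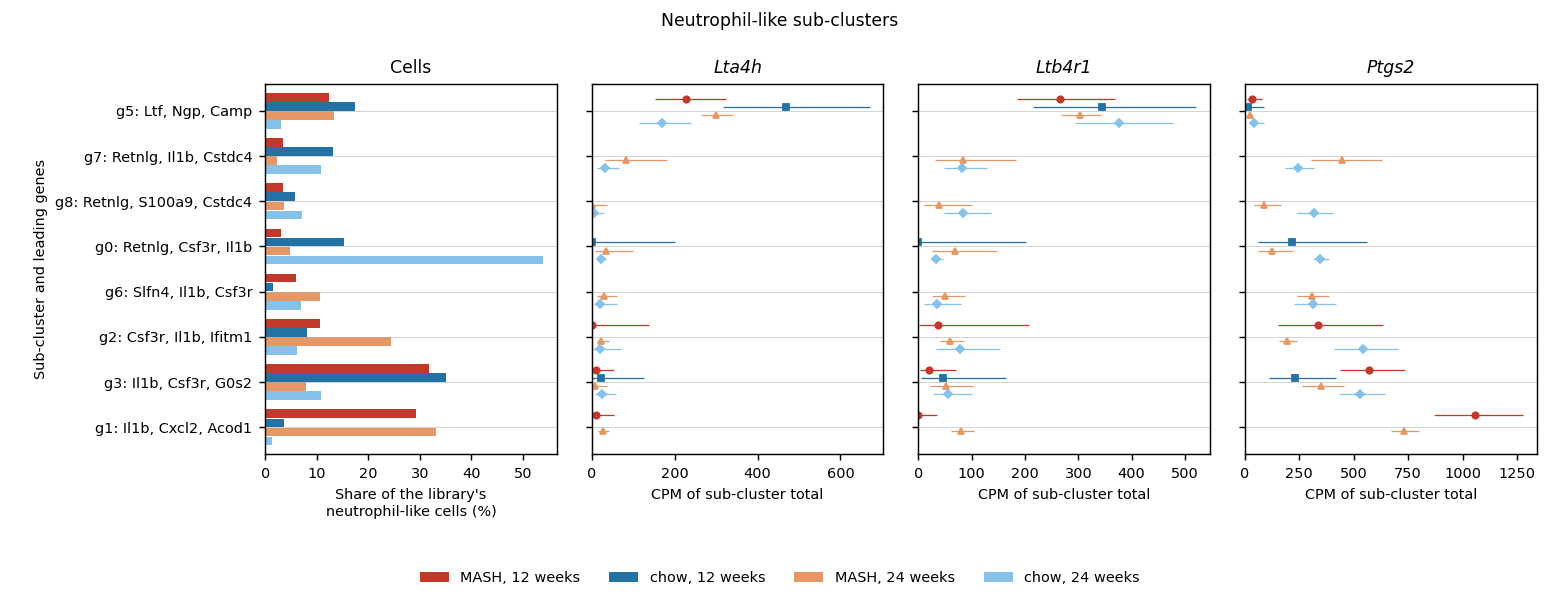
Neutrophil-like sub-clusters, with their share of each library's neutrophil-like cells (left, %) and the CPM of Lta4h, Ltb4r1 and Ptgs2 in each sub-cluster with 20 or more cells in a library (points, with 95% Poisson intervals). Lta4h and Ltb4r1 are high in g5, and Ptgs2 is low there and highest in g1.

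T-cell-like cells had more Ltb4r1 in 24-week MASH than in 24-week chow. They held 58.1 CPM in 24-week MASH and 12.5 CPM in 24-week chow (451 and 138 UMIs), a ratio of 4.66 (3.84 to 5.68), against 17.7 and 11.8 CPM at 12 weeks, where the ratio was 1.5 (1.14 to 1.97). The ratio at 24 weeks was 3.46 (2.62 to 4.63) with hashtags 1 to 4 of the chow library and 5.33 (4.04 to 7.15) with hashtags 5 to 8. Single hashtags ranged from 33.8 to 70.5 CPM in 24-week MASH and from 7.52 to 21.5 CPM in 24-week chow, so the 8 MASH values lay above the 8 chow values. Ltb4r1 was seen in 12.1% of T-cell-like cells in 24-week MASH and 2.93% in 24-week chow, or 5.01% and 1.12% after thinning, which left out 195 and 292 shallower cells. B-cell-like cells had a share of at most 0.193%, at median depths of 2493 UMIs in 24-week MASH and 1797.5 in 24-week chow, and T-cell-like cells had median depths of 2918.5 and 2513.5 UMIs.

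The level differed among T-cell-like clusters, and so did their shares. In the Foxp3 cluster, Foxp3 being the regulatory T cell factor, Ltb4r1 was at 99.7 CPM in 24-week MASH and 27.7 CPM in 24-week chow, and this cluster held 21.8% and 3.23% of T-cell-like cells. In the Cxcr6 cluster it was at 49.5 and 12.6 CPM, and in the Lef1 cluster at 11.6 and 1.77 CPM. Without the Foxp3 cluster the values were 47.4 CPM in 24-week MASH and 12.0 CPM in 24-week chow, so the difference was also present in the other T-cell-like cells.

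Ltc4s (chromosome 11, 50236461 to 50238616, minus strand) had 2 main sources of UMIs. Endothelial-like cells held 82.2 CPM in 12-week MASH and 74.4 CPM in 12-week chow, and 99.6 and 76.8 CPM at 24 weeks. The ratios were 1.1 (0.986 to 1.24) and 1.30 (1.1 to 1.53), and single hashtags overlapped between diets, from 62.6 to 165 CPM in 24-week MASH and from 13 to 151 CPM in 24-week chow. In chow, endothelial-like cells held 75.4% of all Ltc4s UMIs at 12 weeks and 79.4% at 24 weeks. In MASH their share was 20.2% and 36.8%.

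The other source was a monocyte/macrophage-lineage cluster, m11, which is left unnamed and was led by Saa3, Prg4, Fn1 and Alox15. It had 175 cells in 12-week MASH and 1 in 12-week chow, and 35 in 24-week MASH and 0 in 24-week chow. Ltc4s was at 1327 CPM in its 12-week MASH cells (1875 UMIs in 87.4% of cells) and at 635 CPM in its 24-week MASH cells (238 UMIs). Alox15 (chromosome 11, 70344152 to 70352031, minus strand) was at 827 CPM (1169 UMIs in 28.0% of cells) and 98.7 CPM (37 UMIs). Of its 211 cells, 181 had an Ltc4s UMI, 53 had an Alox15 UMI and 51 had both. Alox15 was very uneven, since the 10 cells with most of it held 615 of 1206 UMIs, and Ltc4s less so, with 463 of 2121 UMIs in its top 10 cells.

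Cluster m11 also carried Alox5 at 105 CPM and Alox5ap at 1840 CPM in 12-week MASH, and 64.0 and 1283 CPM in 24-week MASH. Macrophage genes were present: Adgre1 (the antigen F4/80) was at 503 CPM, Csf1r (the receptor for macrophage colony-stimulating factor) at 628 CPM and C1qa at 1379 CPM in 12-week MASH. Gata6, a factor of peritoneal macrophages, was at 60.1 CPM there and at 29.3 CPM in 24-week MASH, while the Kupffer cell gene Clec4f and the mesothelial gene Msln were at 0 in both. Cd5l, a gene of Kupffer cells and other resident macrophages, was at 1165 CPM (46.3% of cells) in 12-week MASH and at 640 CPM in 24-week MASH, and Timd4, another gene of resident macrophages, at 13.4 CPM and 0. Of the 175 cells of m11 in 12-week MASH, 94 carried hashtag 6, 29 carried hashtag 4 and 4 carried hashtag 5, while 45 carried several hashtags and 3 none. Cells with several hashtags held 324 of the Alox15 and 599 of the Ltc4s UMIs. Of all cells with several hashtags in that library, 24.7% had been removed as doublets, and the part of remaining doublets was not tested. A cluster that comes mostly from 1 library may reflect that library and not a cell type.

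The whole-library values of both genes at 12 weeks rested on this cluster. Over all kept cells Alox15 was at 22.4 CPM in 12-week MASH and 1.30 CPM in 12-week chow, a ratio of 17.2 (13.2 to 23.0), and m11 held 79.9% of its UMIs in MASH. In single-hashtag cells it was 23.1 (15.9 to 35). Without m11 and the clusters of mixed markers it was 1.84 (1.32 to 2.61). Ltc4s was at 49.2 and 18.6 CPM, a ratio of 2.65 (2.45 to 2.87), 2.77 in single-hashtag cells, and without those clusters the ratio was 0.907 (0.823 to 0.999). At 24 weeks the Ltc4s ratio was 1.33 with m11 and 0.922 (0.805 to 1.06) without it and the mixed clusters, and the first of these was 4.25 with hashtags 1 to 4 of the chow library and 0.773 with hashtags 5 to 8.

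**Figure D3:**
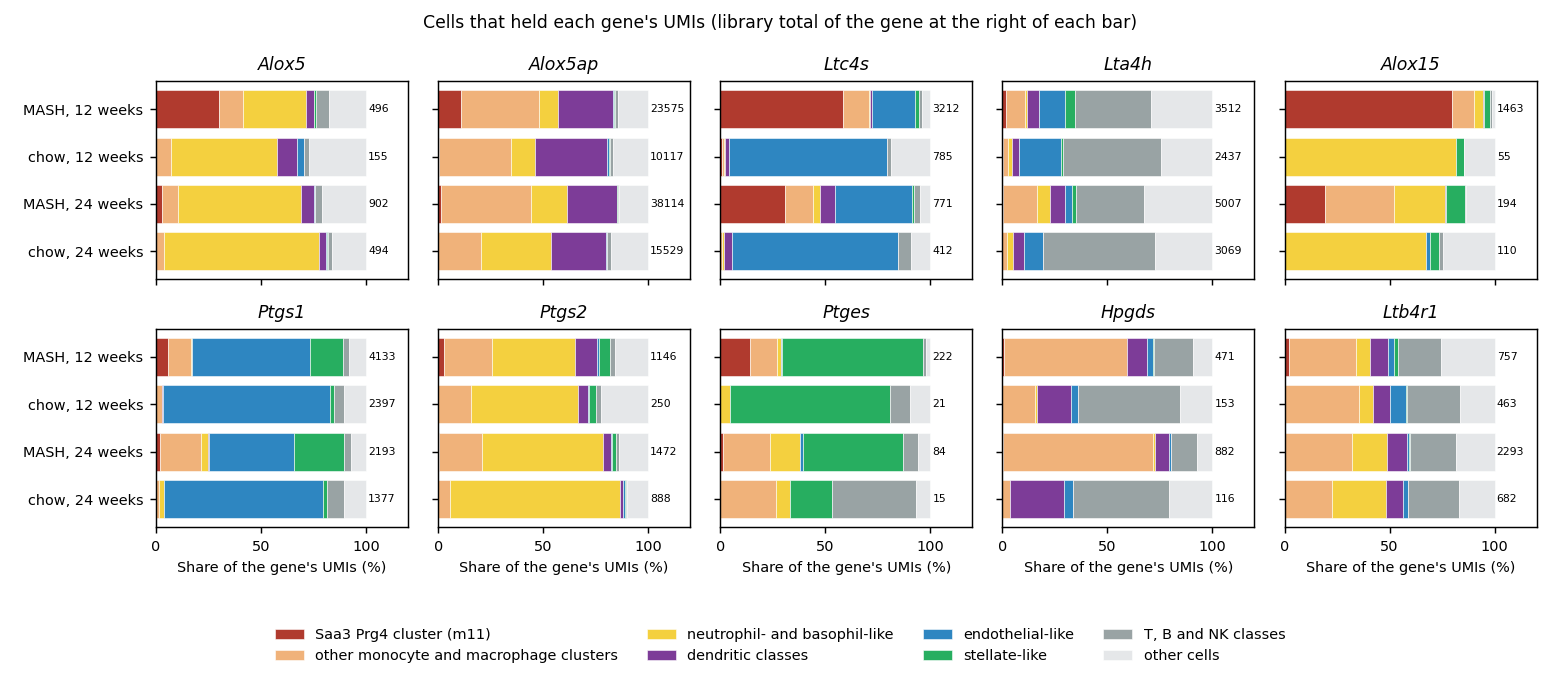
Share of each gene's UMIs in a library (x axis, %) held by groups of cell classes (colours), with 1 bar per library and the gene's total UMIs at the right. In 12-week MASH the m11 cluster held 58.4% of Ltc4s and 79.9% of Alox15 UMIs, and in chow endothelial-like cells held 75.4% and 79.4% of Ltc4s UMIs.

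In chow, Alox15 was found mainly in basophil-like cells. They held 161 CPM in 12-week MASH and 208 CPM in 12-week chow, and 211 CPM in 24-week MASH and 395 CPM in 24-week chow. This gave ratios of 0.774 (0.516 to 1.17) and 0.534 (0.354 to 0.795), neither of them called. Of 330 basophil-like cells, 136 had an Alox15 UMI and 3 had an Ltc4s UMI, unlike m11. Stellate-like cells (hepatic stellate cells or fibroblasts) followed with 12.4 and 4.91 CPM at 12 weeks and 9.38 and 25.3 CPM at 24 weeks, on 2 and 5 chow UMIs. In macrophage-like cells 63 Alox15 UMIs of 24-week MASH came from 0.326% of 307 cells, a single cell.

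In small amounts, Ltc4s was also higher in MASH in stellate- and neutrophil-like cells. Stellate-like cells held 62 UMIs in 12-week MASH (17.5 CPM) and 0 in 12-week chow, at least 2.38-fold higher against a floor of 3 counts. Neutrophil-like cells held 26 UMIs in 24-week MASH and 3 in 24-week chow, a ratio of 6.73, which was 2.44 (0.557 to 14.6) without sub-cluster g1 described below. Mature dendritic-like cells went the other way at 12 weeks, with 37.2 CPM in MASH and 103 CPM in chow (27 and 11 UMIs), a ratio of 0.36. They held 65.2 CPM in 24-week MASH (41 UMIs), and their range over 3 libraries overlapped that of endothelial-like cells. Macrophage-like cells held 69.7 CPM in 12-week MASH (65 UMIs), 42.8 CPM in 12-week chow (2 UMIs) and 10.8 CPM in 24-week MASH (34 UMIs).

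Ptgs1 (chromosome 2, 36230426 to 36252272, plus strand) was, among named classes, a gene of Kupffer-, endothelial- and stellate-like cells. Over 2 hashtags of 12-week MASH, the unnamed cluster m11 held 103 and 181 CPM of Ptgs1. Kupffer-like cells held 372 CPM in 12-week MASH, 335 CPM in 12-week chow and 263 CPM in 24-week MASH. Endothelial-like cells held 294 and 240 CPM at 12 weeks, a ratio of 1.22 (1.15 to 1.30), and 315 and 246 CPM at 24 weeks, a ratio of 1.28 (1.17 to 1.40). At 12 weeks single hashtags of endothelial-like cells did not overlap, at 272 to 316 CPM in MASH and 204 to 258 CPM in chow, whereas at 24 weeks they did, at 254 to 409 and 143 to 323 CPM. Stellate-like cells held 186 and 103 CPM at 12 weeks, a ratio of 1.80 (1.32 to 2.52), and 272 and 116 CPM at 24 weeks, a ratio of 2.34 (1.54 to 3.73). The stellate-like ratio rests on 92 chow cells at 12 weeks and 29 at 24 weeks.

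The source of Ptgs1 UMIs shifted with these classes. Endothelial-like cells held 56.0% of them in 12-week MASH and 79.6% in 12-week chow, and 40.9% and 76.0% at 24 weeks. Stellate-like cells held 15.9% and 1.75%, then 23.8% and 1.67%. Cholangiocyte-like cells held 6.22 CPM in 24-week MASH and 24.4 CPM in 24-week chow (45 and 30 UMIs), a ratio of 0.255 (0.157 to 0.419), but 21.9 and 22.6 CPM at 12 weeks.

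Ptgs2 (chromosome 1, 150100031 to 150108227, plus strand) was highest in basophil- and neutrophil-like cells, whose ranges overlapped. Neutrophil-like cells held 539 CPM in 12-week MASH and 98.6 CPM in 12-week chow (230 and 18 UMIs), a ratio of 5.47 (3.39 to 9.40). At 24 weeks they held 304 CPM in MASH and 335 CPM in chow, a ratio of 0.907 (0.819 to 1.01). Single hashtags at 12 weeks ranged from 454 to 552 CPM in MASH and from 0 to 122 CPM in chow. At 24 weeks they ranged from 196 to 501 CPM in MASH and from 55.5 to 606 CPM in chow. Median UMIs per neutrophil-like cell were 1467 in 12-week MASH and 1031 in 12-week chow. Of the 4 libraries 12-week MASH was the highest and 12-week chow the lowest, with both 24-week values between them. A Ptgs2 UMI was seen in 37.3% of 12-week MASH and 11.7% of 12-week chow neutrophil-like cells, or 31.6% and 9.46% after thinning without 43 and 63 shallower cells, and in at most 0.558% of T-cell-like cells.

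Ptgs2 and Lta4h were high in different neutrophil-like sub-clusters. It was at 27.3 CPM in g5 and at 768 CPM in g1, the sub-cluster led by Il1b, Cxcl2 and Acod1 (an interleukin, a neutrophil chemokine and the itaconate-producing enzyme). Sub-cluster g1 held 29.2% of neutrophil-like cells in 12-week MASH and 3.65% in 12-week chow, and 33.2% in 24-week MASH and 1.27% in 24-week chow. Without g1, Ptgs2 was at 374 CPM in 12-week MASH and 102 CPM in 12-week chow (3.67-fold), and at 149 CPM in 24-week MASH and 330 CPM in 24-week chow. In sub-cluster g3, present at both weeks, it was at 572 and 228 CPM at 12 weeks and at 347 and 530 CPM at 24 weeks. At 24 weeks MASH thus had the larger g1 share and the lower level outside g1.

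In basophil-like cells Ptgs2 differed by week more than by diet, with 589 CPM in 12-week MASH and 533 CPM in 12-week chow, and 149 and 106 CPM at 24 weeks. Weeks were separate libraries, so a week and its library cannot be told apart. Conventional dendritic type 2-like cells held 50.7 and 8.74 CPM at 12 weeks (86 and 5 UMIs), a ratio of 5.79 (2.39 to 18.3), and 15 and 9.11 CPM at 24 weeks. The 12-week ratio was 2.02 (1.09 to 4.08) under a stricter cell filter. Mature dendritic-like cells held 46 UMIs in 12-week MASH and 0 in 12-week chow, at least 2.26-fold higher.

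In classical monocyte-like cells the Ptgs2 ratio lay on opposite sides of 1 at 12 and 24 weeks. They held 47.9 CPM of Ptgs2 in 12-week MASH and 22.7 CPM in 12-week chow (97 and 21 UMIs), a ratio of 2.11 (1.31 to 3.57), and 13.9 CPM in 24-week MASH and 35.0 CPM in 24-week chow (45 and 33 UMIs), a ratio of 0.399 (0.249 to 0.645). Sub-cluster m12, 120 cells led by Cxcl9 and Cxcl10 (interferon-induced chemokines), held most of the chow signal at 24 weeks. It had 22 UMIs in 24-week MASH and 30 of the 33 UMIs in 24-week chow, at 54.9 and 260 CPM, and without it the 24-week ratio was 2.25 (0.679 to 11.7) and the 12-week ratio 1.62 (0.906 to 3.09). With hashtags 5 to 8 of 24-week chow the ratio was 0.661 (0.309 to 1.62). Single hashtags of these cells overlapped between diets at both weeks. At 12 weeks they ranged from 27.5 to 52.5 CPM over 3 in MASH and from 9.03 to 45.7 CPM over 3 in chow. At 24 weeks they ranged from 0 to 17.3 CPM over 8 in MASH and from 0 to 9.40 CPM over 3 in chow. Non-classical monocyte-like cells held 35 UMIs in 24-week MASH and 0 in 24-week chow; this was called higher although the bound against the 3-count floor was at least 1.91-fold.

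**Figure D4:**
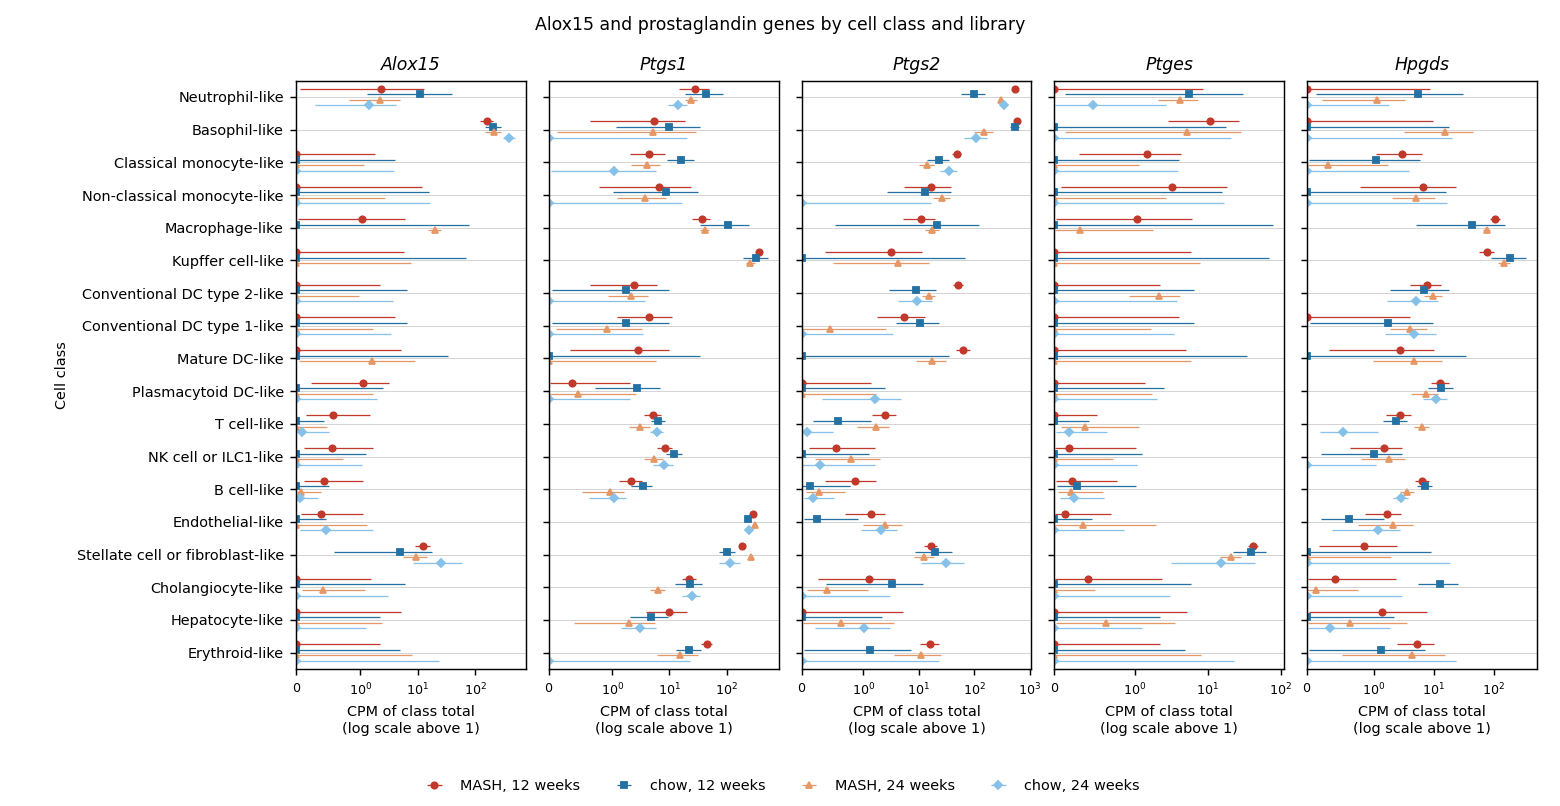
Levels of the 4 prostaglandin genes and Alox15 (x axis, CPM of the class total, log scale above 1) in 18 cell classes (y axis). Points are the 4 libraries and bars are 95% Poisson intervals. Ptgs2 in neutrophil-like cells is at 539 CPM in 12-week MASH and 98.6 CPM in 12-week chow, and Ptges is highest in stellate-like cells.

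Ptges (chromosome 2, 30889471 to 30929863, minus strand) was sparse and, among named classes, highest in stellate-like cells. They held 42.1 CPM in 12-week MASH and 39.3 CPM in 12-week chow (149 and 16 UMIs), and 20.8 and 15.2 CPM at 24 weeks (40 and 3 UMIs). The ratios of 1.07 (0.639 to 1.93) and 1.38 (0.438 to 6.95) gave no call. Over 2 hashtags of 12-week MASH, the unnamed cluster m11 held 20.1 and 28.7 CPM of Ptges. Over all kept cells Ptges was at 3.40 CPM in 12-week MASH and 0.497 CPM in 12-week chow, a ratio of 6.84 (4.37 to 11.3), and the ratio was 3.97 (2.28 to 7.41) at 24 weeks. Stellate-like cells held 67.1% of its UMIs in 12-week MASH and 76.2% in 12-week chow, and numbered 287 and 92. Neutrophil-like cells held 11 UMIs in 24-week MASH and 1 in 24-week chow, mostly in g5: without it the ratio was 1.03 (0.0131 to 80.5).

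Hpgds (chromosome 6, 65117293 to 65144908, minus strand) was highest in Kupffer- and macrophage-like cells. Kupffer-like cells held 77.3 CPM in 12-week MASH and 186 CPM in 12-week chow (49 and 10 UMIs), a ratio of 0.416 (0.208 to 0.921), and 151 CPM in 24-week MASH. Under the stricter cell filter the 12-week ratio was 0.817 (0.363 to 2.16) and was not called. Macrophage-like cells held 106 CPM in 12-week MASH, 42.8 CPM in 12-week chow (2 UMIs) and 76.4 CPM in 24-week MASH. Plasmacytoid dendritic-like cells were next with 12.8 and 13.4 CPM at 12 weeks and 7.35 and 10.8 CPM at 24 weeks, and lay below both macrophage classes. Over all kept cells Hpgds was at 7.21 CPM in 12-week MASH and 3.62 CPM in 12-week chow (1.99-fold), and at 10.5 and 1.95 CPM at 24 weeks, a ratio of 5.39 (4.44 to 6.60). Monocyte and macrophage clusters held 71.5% of its UMIs in 24-week MASH and 3.45% in 24-week chow. In such whole-library values, more cells of a type and more RNA per cell cannot be told apart.

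T-cell-like cells held 49 Hpgds UMIs in 24-week MASH and 6 in 24-week chow (6.31 and 0.542 CPM), a ratio of 11.6 (4.98 to 33.3). With hashtags 1 to 4 of the chow library the ratio was 5.44 (2 to 20.8). In the Foxp3 cluster it was at 16.4 CPM in MASH and 0 in chow. At 12 weeks T-cell-like cells held 2.71 and 2.35 CPM.

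Other small signals in T-cell-like cells were called as well. Alox5 was at 3.56 CPM in 12-week MASH and 0.353 CPM in 12-week chow (25 and 3 UMIs), and at 2.83 and 0.542 CPM at 24 weeks (22 and 6 UMIs). Alox5ap was at 13.8 and 6.59 CPM at 12 weeks, a ratio of 2.1, and Ltc4s at 4.42 and 0.823 CPM (31 and 7 UMIs). Ptgs2 was at 2.42 and 0.588 CPM at 12 weeks and at 1.67 and 0.0903 CPM at 24 weeks. With hashtags 1 to 4 of 24-week chow the 24-week ratios of Alox5 (1.96, with an interval of 0.723 to 6.61) and Ptgs2 (5.78, 0.868 to 246) were not called. These levels were at most 13.8 CPM. The 8 classical monocyte markers summed to 1405 CPM in T cell clusters of 12-week MASH and 526 CPM of 12-week chow, and to 1242 and 697 CPM at 24 weeks, with 8, 8, 8 and 7 of them detected. The 10 macrophage markers, of which 10, 10, 10 and 9 were detected, summed to 217 and 73.4 CPM, then 228 and 57.7 CPM. Of 12785 T-cell-like cells, 41 had an Alox5 UMI, 251 an Alox5ap UMI and 2 both. The part of RNA from other cells in these ratios was not tested.

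Some calls in other classes rested on few cells. In cholangiocyte-like cells of 12-week MASH and 12-week chow, Alox5ap had 17 and 77 UMIs, Ltc4s 16 and 60 and Alox5 0 and 12. Of the chow UMIs, 53 of Alox5ap, 57 of Ltc4s and all 12 of Alox5 lay in 2 cells. Each of these cells had 14 UMIs of Trpm5, a cation channel of taste and tuft cells. Without those 2 cells, chosen after their values were seen, the Alox5ap ratio was 0.180 (0.0908 to 0.349) and the Ltc4s ratio 1.36 (0.388 to 7.26). Erythroid-like cells were called higher for Ptgs1 and Ptgs2 at 12 weeks and for Alox5ap at 24 weeks, and their summed macrophage markers were also higher, at 761 CPM in 12-week MASH and 364 CPM in 12-week chow, and 711 and 259 CPM at 24 weeks. The part of macrophage RNA in these ratios was not tested.

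The remaining calls were each seen at 1 week. Endothelial-like cells had 11 Ptgs2 UMIs in 12-week MASH and 2 in 12-week chow, a ratio of 5.55 that was 1.05 in single-hashtag cells, and 21 Ltb4r1 UMIs in 24-week MASH and 14 in 24-week chow, a ratio of 2.24 that was 1.41 (0.617 to 3.48) with hashtags 5 to 8 of the chow library. Hepatocyte-like cells had 46 Alox5ap UMIs in 24-week MASH and 38 in 24-week chow, a ratio of 2.27 that was 0.605 (0.191 to 1.68) in single-hashtag cells. NK-cell-like cells had 70 Alox5ap UMIs (13.1 CPM) in 12-week MASH and 18 (6.11 CPM) in 12-week chow. Calls in the other direction were Ptgs1 in classical monocyte-like cells at 12 weeks (9 and 15 UMIs), Lta4h in mature dendritic-like cells at 12 weeks (8 and 5 UMIs) and Ltb4r1 in basophil-like cells at 24 weeks (3 and 12 UMIs, ratio 0.231).

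Over all kept cells the other genes mixed these classes. Alox5 was at 7.59 CPM in 12-week MASH and 3.67 CPM in 12-week chow, a ratio of 2.07 (1.73 to 2.5), and 1.46 without m11 and the mixed clusters. Ptgs2 was at 17.5 and 5.91 CPM at 12 weeks, a ratio of 2.97 (2.58 to 3.42), and at 17.6 and 15 CPM at 24 weeks, where the ratio was 3.08 with hashtags 1 to 4 of the chow library and 0.630 with hashtags 5 to 8. Ltb4r1 was at 11.6 and 11 CPM at 12 weeks and at 27.4 and 11.5 CPM at 24 weeks, a ratio of 2.39 (2.19 to 2.6). Lta4h and Ptgs1 differed least, with 12- and 24-week ratios of 0.933 and 1.16 for Lta4h and 1.12 and 1.13 for Ptgs1.

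Counted together, 98 gene and class pairs could be compared at 12 weeks over 18 classes. Of these, 13 were called higher in MASH, where 2.79% of all gene and class pairs were, and 9 were called lower, where 2.96% were. At 24 weeks 80 pairs in 15 classes gave 12 called higher, with 4.9% of all pairs, and 4 called lower, with 3.53%. The median log2 ratio of the members was -0.10 at 12 weeks and 0.22 at 24 weeks, and that of all genes was -0.03 and 0.03. T-cell-like cells gave 4 of the higher calls at each week among 8 pairs (4.59% and 6.62% of all genes there), and neutrophil-like cells gave 1 higher and 1 lower among 6 pairs at 12 weeks (3.21% and 3%) and 3 higher among 8 at 24 weeks (6.1%). No other pair was called in these classes, where lower calls made up 3.05% of all genes in neutrophil-like cells at 24 weeks and 1.69% and 2.15% in T-cell-like cells at 12 and 24 weeks. Among the 15 classes compared at both weeks, no gene was called in the same direction at both except Alox5 and Ptgs2. These were higher in T-cell-like cells, where 2.03% of all genes were called higher at both weeks. The genes share cells within a class, so these counts are not independent. Reads of a gene that overlaps Ptges on the same strand could have been counted with it. Alox5ap, Ltc4s, Ptgs1 and Hpgds are overlapped by genes on the opposite strand only, and any effect of these was not tested.

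**Figure D5:**
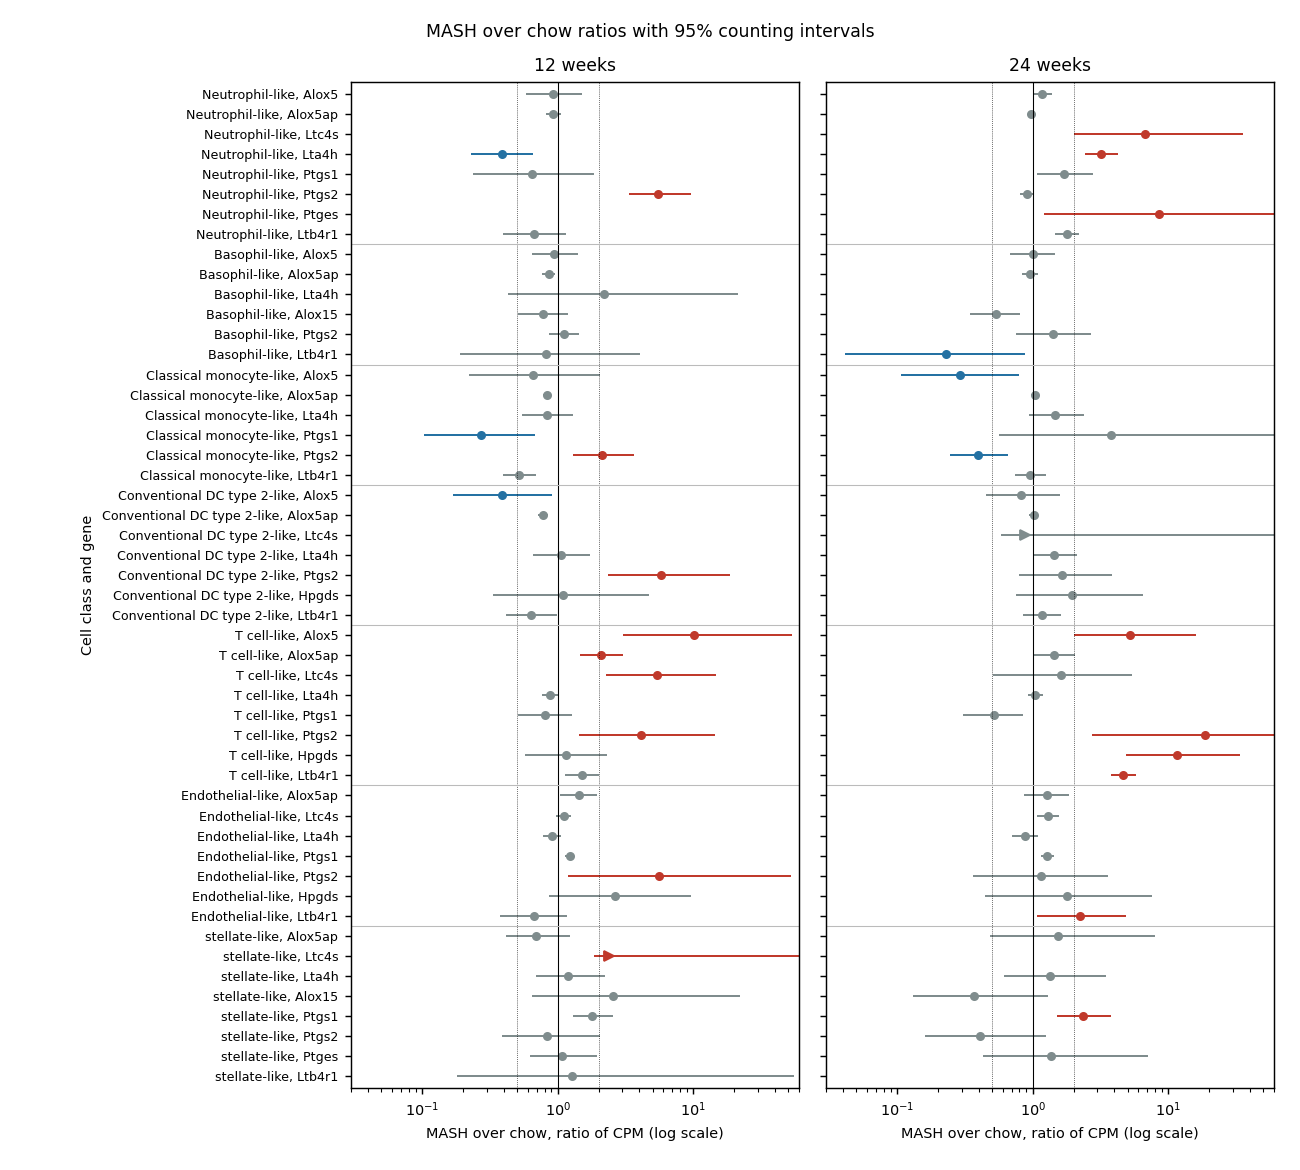
Ratios of MASH over chow (x axis, log scale) for each gene that could be compared in 7 classes (y axis), at 12 weeks (left) and 24 weeks (right). Red is called higher, blue called lower and grey neither, bars are 95% counting intervals, triangles are lower bounds against 3 counts and dotted lines mark 2-fold. Lta4h in neutrophil-like cells is at 0.392 at 12 weeks and 3.20 at 24 weeks.

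The rest of the pathway was described from lists of 10 genes of arachidonate release, 5 other lipoxygenases, 9 other prostanoid synthases, 14 genes of turnover and transport and 17 receptors, all of which were found. Phospholipases and other genes of arachidonate release gave 72 pairs at 12 weeks, with 6 called higher and 4 lower, and 67 at 24 weeks, with 10 higher and 3 lower. Other prostanoid synthases gave 89 pairs with 0 higher and 6 lower, then 87 with 6 higher and 5 lower. Genes of turnover and transport gave 134 pairs with 5 higher and 10 lower, then 130 with 11 higher and 8 lower. Receptors gave 70 pairs with 5 higher and 5 lower, then 71 with 8 higher and 5 lower. Other lipoxygenases gave 5 and 6 pairs, with 2 lower at 12 weeks and 2 higher at 24 weeks. The background percentages are those given above for each week and direction.

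In stellate-like cells 2 of 26 list genes tested at both weeks were called higher at both, as were 1.4% of all genes there. At 12 weeks alone the lists gave 3 higher and 6 lower calls in this class, where 4.17% of all genes were higher and 6.12% lower. Hpgd, the enzyme that inactivates prostaglandins, was at 166 CPM in 12-week MASH and 34.4 CPM in 12-week chow (588 and 14 UMIs), and at 261 and 10.1 CPM at 24 weeks (500 and 2 UMIs). Ptger3, the EP3 receptor for prostaglandin E2, was at 54.0 and 4.91 CPM, then 86 and 10.1 CPM, on 2 chow UMIs at each week.

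In T-cell-like cells 3 of 30 list genes were called higher at both weeks, as were 2.03% of all genes, and 1 lower, as were 0.394%. Cysltr1, a cysteinyl leukotriene receptor, was at 6.41 and 2.94 CPM at 12 weeks and 7.08 and 2.26 CPM at 24 weeks. Ptgir, the prostacyclin receptor, was at 2.71 and 0.823 CPM, then 4.12 and 1.08 CPM. Pla2g7, which breaks down platelet-activating factor, was at 3.56 and 0.588 CPM, then 2.06 and 0.813 CPM, and its level in neutrophil-like cells was a median of 465 CPM. Mgll (monoacylglycerol lipase) was the lower one, at 1.99 and 6.94 CPM, then 3.22 and 9.03 CPM. Its highest medians were 210 CPM in hepatocyte-like and 174 CPM in endothelial-like cells. The part of RNA from those cells in the T-cell-like values was not tested.

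In cholangiocyte-like cells 3 of 26 list genes were called lower at both weeks, as were 3.01% of all genes. Cholangiocyte-like cells had less Slco2a1, the prostaglandin transporter, at 26.9 CPM in 12-week MASH and 116 CPM in 12-week chow, and 13.8 and 152 CPM at 24 weeks. They also had less Cbr1 (carbonyl reductase), at 158 and 426 CPM, then 104 and 561 CPM, and less Ephx2 (soluble epoxide hydrolase), at 32.8 and 74.2 CPM, then 22.9 and 47.2 CPM. In hepatocyte-like cells 1 of 16 was higher, as were 1.48% of all genes, and 1 lower, as were 0.556%. Hepatocyte-like cells had more Mgll, at 294 and 127 CPM, then 377 and 84.5 CPM, and less Prxl2b (a prostamide and prostaglandin F synthase), at 34.7 and 72.8 CPM, then 46.7 and 94.7 CPM. Erythroid-like cells had less Ephx2, the 1 list gene of 9 called lower at both weeks (1.66% of all genes), with 1 UMI in 24-week MASH and 12 in 24-week chow. The highest median of Ephx2 was 842 CPM, in hepatocyte-like cells. These numbered 425 in 12-week MASH and 1335 in 12-week chow, and 612 and 1954 at 24 weeks. The part of RNA from other cells in the cholangiocyte- and erythroid-like values was not tested. No list gene was called the same way at both weeks in neutrophil-, monocyte-, conventional or plasmacytoid dendritic- or basophil-like cells, with 8 to 24 tested per class. Of all genes in these classes, 0.0631% to 0.751% were called higher at both weeks and 0.0715% to 0.264% lower. NK-, B- and endothelial-like cells had none either, where 0.393% to 1.15% of all genes were higher and 0.443% to 0.692% lower. Kupffer-, macrophage- and mature dendritic-like cells were not compared at 24 weeks.

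The genes with the most similar pattern were found over 64 class and library pairs of 18 classes, by Pearson correlation of log2(CPM + 1) among 8634 genes. These pairs share libraries and are not independent, and the values describe the pattern only. Cd200r3, Fcer1a, Mertk, Folr2 and Vsig4, which appear below, were also among the markers used to name the classes. Alox5 was most like Ifitm1 (r = 0.863), Ccl6 (0.861) and Nfe2 (0.845), and Alox5ap most like Cd300a (0.931), Nfam1 (0.926) and Taldo1 (0.896). Alox15 was most like Cd200r3 (0.917), Fcer1a (0.899) and Slc6a4 (0.882). Ptgs2 was most like Ifitm1 (0.834), Slc16a3 (0.828) and Ccr1 (0.823), so it shared its closest gene with Alox5. Ltb4r1 was most like Myo1f (0.810), Fxyd5 (0.790) and Itgam (0.789).

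Ptgs1 was most like Itga9 (0.834), Mertk (0.807) and Stab1 (0.802), and Ltc4s most like Zmynd15 (0.708), Stab1 (0.699) and Erg (0.689), so both had Stab1, a scavenger receptor of sinusoidal endothelium and macrophages, among their 3. Ptges was most like Vit (0.843), Medag (0.836) and Adamts2 (0.830), and Hpgds most like Folr2 (0.723), Vsig4 (0.701) and Mmp12 (0.692), which are macrophage genes. Lta4h had the broadest pattern, with Hdac4 (0.720), Mbd2 (0.687) and Stk39 (0.653).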

How the data were processed

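Droplet 5′ single-cell RNA was measured in 4 libraries, 1 for each diet and week. The authors deposited UMI counts per gene and cell, made with Cell Ranger 5.0.1 for 3 libraries and Cell Ranger 4 for 12-week MASH, per the file headers. Genome builds mm10 and GRCh38 are listed in the submitters' processing notes with no role given. The counts cover 32285 genes, plus hashtag counts.

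Cells with at least 500 gene UMIs, at least 300 genes and at most 15% mitochondrial UMIs were kept (82905), and doublets called by Scrublet in scanpy 1.11.5 were removed, which left 70169. The automatic cut marked 25.8% of 24-week chow, so the expected rate was used there. This still removed 21.4% of 24-week chow cells, against 12.4% in 24-week MASH, 12.1% in 12-week MASH and 12.6% in 12-week chow. Of cells with several hashtags, 51.8% were removed in 24-week chow and 34.3% in 24-week MASH. Counts were scaled to 10000 per cell, and 2000 variable genes, without the 10 genes and the pathway lists, gave 30 components, 15 neighbours and Leiden clusters at resolution 1. Lineages were clustered again with 1500 genes and 20 components. Clusters were named from 22 marker sets. Members, lists and markers were chosen with earlier results of these data known.

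Ratios compare summed counts as CPM of a class total, with an exact conditional binomial interval, in classes of at least 20 cells in both libraries. CPM was computed here from the deposited counts. Intervals and floors of 3 counts cover counting error only. Pathway genes outside the 10 were named when a gene of the fixed lists was called at both weeks, and others as the 3 best correlated genes. Leading genes of clusters, the genes that describe m11, and Trpm5 were named outside these rules, after the clusters were seen. The procedure was tested on simulated data. Promoters are from RefSeq, for 8 of the 10 genes, and gene positions from GENCODE M21. Other cell filters, no doublet removal, other resolutions, another scaling, no UMI minimum, single-hashtag cells and parts of 24-week chow were tried.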

Additional observations from a re-analysis of the deposited data

Results flagged for a closer look

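In 4 gene and class pairs the ratio of MASH over chow lay on opposite sides of 1 at 12 and 24 weeks, each with an interval that left out 1. The difference between weeks was not tested in any of them, since each week has 1 library per diet. Lta4h in neutrophil-like cells had a ratio of 0.392 at 12 weeks and 3.20 at 24 weeks, and sub-cluster g5, which held most of it, made up 12.4% of these cells in 12-week MASH and 17.5% in 12-week chow, and 13.3% and 3.06% at 24 weeks. Ptgs2 in classical monocyte-like cells had a ratio of 2.11 at 12 weeks and 0.399 at 24 weeks, and 30 of 33 UMIs of 24-week chow lay in sub-cluster m12. Alox5ap in conventional dendritic type 1-like cells had a ratio of 0.875 at 12 weeks and 1.15 at 24 weeks. Alox5ap in plasmacytoid dendritic-like cells had a ratio of 0.903 at 12 weeks and 1.11 at 24 weeks. Both Alox5ap pairs were under 2-fold at each week.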

How the results depend on the processing

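At 12 weeks the count of pairs called higher stayed between 11 and 15 over the other settings, and that of pairs called lower between 7 and 10. At 24 weeks the 12 higher calls were 8 to 16 over settings that kept the whole chow library, and 7 with its hashtags 1 to 4. The 4 lower calls were 8 with no doublet removal, and 1 with hashtags 1 to 4 and 1 with hashtags 5 to 8 of 24-week chow. Within classes, the direction turned for Ptgs2 in endothelial-like cells at 12 weeks at resolution 2 (0.690) and for Alox5ap in hepatocyte-like cells at 24 weeks in single-hashtag cells (0.605), and the cause was not tested. The following were chosen after seeing the data, and each removes named cells: Ltc4s over all kept cells at 12 weeks turned to 0.907 without m11 and the mixed clusters, Ltc4s in cholangiocyte-like cells to 1.36 without the 2 Trpm5 cells, and Ptgs2 in classical monocyte-like cells at 24 weeks to 2.25 without m12. Over all kept cells at 24 weeks, 8 of 10 ratios moved beyond their intervals with hashtags 1 to 4 and 8 with hashtags 5 to 8: Ptgs2 was 3.08 and 0.630, and Ltc4s 4.25 and 0.773. No paired analysis was possible because each diet and week has a single library. That single library also means that no spread between animals is known, and classes with few chow cells limit what could be detected.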
